A study of Rattus norvegicus with 6 samples.

Results

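The BCL2 family regulators of apoptosis were followed in rat bone marrow mesenchymal stem cells (BMSCs) given ginsenoside Rb1 or DMSO. The members were chosen by gene symbol, as Bcl2, Bcl2l1, Mcl1, Bax, Bak1, Bid, Bad, Bcl2l11, Bbc3 and Pmaip1, whatever their values. Of these 10 genes, 8 had a row among the 22062 rows of the deposited table of protein-coding genes, and 7 passed the filter on low values (1 FPKM or more in 3 or more of the 6 libraries), all 7 of them in every library. No row was found for Mcl1 or Bbc3 by symbol or by gene number, and they were not analysed here.

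RNA-seq was performed on 3 libraries of BMSCs given ginsenoside Rb1, a saponin of ginseng, and on 3 libraries of BMSCs that the labels name as DMSO-treated. Rb1 was given at 20 µM for 24 h. In what solvent the Rb1 was added is stated neither by the labels nor by the methods. The cells were flushed from the femurs and tibias of 4-week-old Sprague-Dawley rats, selected by adherence and used at an early passage. The methods call the rats male, whereas the labels give the cells of both groups as female. No gene was deleted or added in either group. The sources do not say that the 3 libraries within each group are separate cultures, so a p-value here reflects only how these libraries vary, and that variation may be technical.

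Proteins of the BCL2 family decide whether the outer membrane of the mitochondrion stays intact. Bcl2, Bcl2l1 (BCL-XL) and Mcl1 are pro-survival members that hold the effectors Bax and Bak1 in check, and the effectors otherwise form pores that let cytochrome c out and start the caspase cascade. The BH3-only members Bid, Bad, Bcl2l11 (BIM), Bbc3 (PUMA) and Pmaip1 (NOXA) relay stress signals, either by binding the pro-survival proteins or by acting on the effectors. Much of this control acts on the proteins, through cleavage, phosphorylation and turnover, and transcript levels do not show it.

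The libraries held 8197157 to 14177062 fragments, as recovered from the deposited scaled counts. Over the 10781 genes tested, the median difference between Rb1 and DMSO was -0.07 on the log2(FPKM + 1) scale, with 4418 genes higher and 6363 lower by value. FPKM is the number of fragments scaled for transcript length and for the fragments of the library. Mitochondrial genes took 18.1% to 24.8% of all FPKM under Rb1 and 10.2% to 18.5% under DMSO. The library with the fewest fragments, Rb1 replicate 1, correlated least with its own group (mean r across genes 0.972, against 0.980 to 0.984 for the other 5 libraries). Of the stromal cell markers, 9 of 10 had a row and all 9 were tested, and their summed FPKM was 6581 to 8596 in Rb1 and 8865 to 9919 in DMSO. A large part of this sum was Col1a1, at 1976, 3829 and 3560 FPKM in Rb1 and 4953, 4218 and 4505 in DMSO. By value 8 of these markers were lower in Rb1 (median -0.16 on the log2 scale) and 1 higher, Itgb1 at 0.38 without overlap. Macrophage and leukocyte markers, 10 of 11 with a row, summed to 4030 to 4420 FPKM in Rb1 and 3658 to 3698 in DMSO. Most of that sum was the lysozyme gene Lyz2, with Cd74 close to 0, and by value 2 of the 9 tested were higher in Rb1 and 7 lower (median -0.27 on the log2 scale). Endothelial markers, 6 of 7 with a row, summed to 21.3 to 23.3 FPKM in Rb1 and 32.1 to 49.6 in DMSO. Egfl7 made up most of this sum, and the defining markers Cdh5 and Tek were close to 0. The part of these marker values in the differences of the BCL2 family was not tested.

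Pmaip1, which encodes the BH3-only protein NOXA, was the only one of the 7 tested members with a higher mean log2 level in Rb1 than in DMSO, and the only one whose groups did not overlap. Its mean FPKM was 1.495-fold that of DMSO. The other 6 members, Bcl2l1, Bax, Bak1, Bid, Bcl2l11 and Bad, had lower mean log2 levels in Rb1, with differences of -0.32 to -0.023, and their groups overlapped. For Bak1 and Bid this direction turned with median or quantile scaling of the libraries. Bcl2l1, Bax and Bad stayed lower, at -0.22, -0.19 and -0.24 with median scaling and -0.30, -0.26 and -0.29 with quantile scaling. None of the 7 passed the adjusted test (limma, Benjamini-Hochberg over all genes tested), a threshold that 0.0186% of all genes passed. At an unadjusted p under 0.05, 1 member was higher, against a background of 8.27% of all genes, and 0 were lower, against 14.6%. Groups that did not overlap were found for 1 member on the higher side, where the background is 11.9%, and for 0 on the lower side, where it is 20.3%. With 7 genes these counts lie near the background and are not a result about the family. In bulk RNA, fewer cells of a type and less RNA per cell cannot be told apart.

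**Figure D1:**
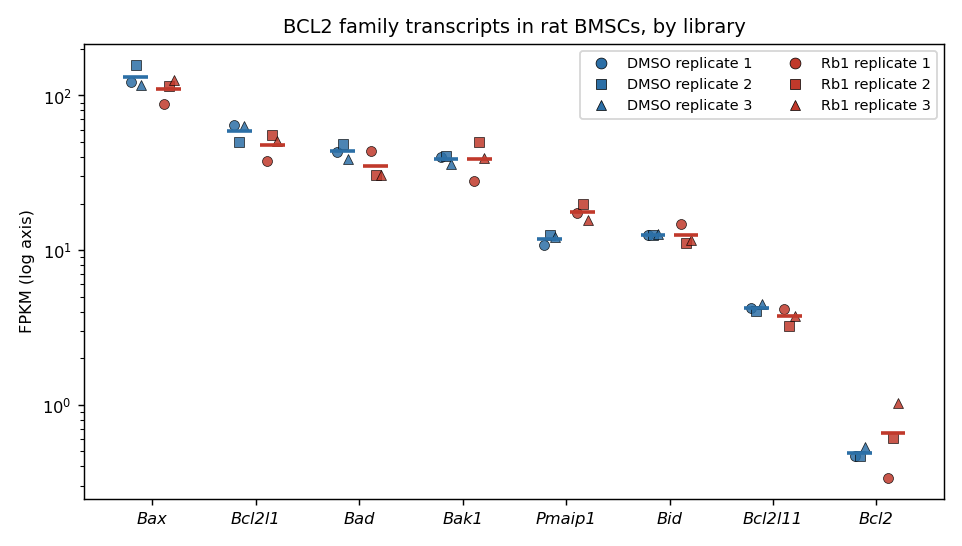
FPKM on a log axis of the 8 members with a row, ordered by mean level, with 1 point for each of the 6 libraries and a bar at each group mean. The 3 Rb1 points of Pmaip1, at 15.7 to 20.02 FPKM, sit above its 3 DMSO points, at 10.9 to 12.5, and the groups overlap in the other genes.

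The members covered a wide span of levels per length. Bax was the highest with a mean of 120.8 FPKM over the 6 libraries, and its lowest library, at 87.9 FPKM, stood above the highest library of every other member. Bcl2l1 followed at a mean of 53.7 FPKM, Bad at 39.2, Bak1 at 38.9, Pmaip1 at 14.8, Bid at 12.5, Bcl2l11 at 3.99 and Bcl2 at 0.572. Among all genes tested, the level of Bax lay at percentile 92.4 and that of Bcl2l11 at percentile 24.4. Not every neighbour in this order was apart. Bcl2l1 exceeded Bad in 5 of 6 libraries and Bad exceeded Bak1 in 4 of 6, with overlapping ranges in both cases. Pmaip1 exceeded Bid in 3 of 6 libraries, and these were the 3 Rb1 libraries. Bak1 and Pmaip1, Bid and Bcl2l11, and Bcl2l11 and Bcl2 had ranges that did not meet.

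Bcl2l1 (ENSRNOG00000007946, chromosome 3, 148259595 to 148313810, minus strand) encodes BCL-XL, a pro-survival protein of the outer mitochondrial membrane. The processing notes name a human build while the table holds rat genes, so the build of these and the following coordinates is not named. Its FPKM was 37.6, 55.7 and 51.1 in Rb1 replicates 1 to 3, and 64.5, 50.3 and 63.3 in DMSO replicates 1 to 3. Rb1 replicate 1 was the lowest of all libraries, and DMSO replicate 2 fell inside the Rb1 range. The means were 48.1 ± 9.38 in Rb1 and 59.4 ± 7.89 in DMSO (SD, n = 3 each). The log2 difference was -0.31 with a 95% interval of -0.73 to 0.11, and it did not pass the test (limma, adjusted p = 0.336). It was -0.14 without Rb1 replicate 1 and -0.42 without DMSO replicate 2.

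Bcl2 (ENSRNOG00000002791, chromosome 13, 26605425 to 26769374, minus strand), the founding pro-survival member of the family, was scarcely detected. Its FPKM was 0.335, 0.607 and 1.03 in Rb1 and 0.468, 0.463 and 0.534 in DMSO. Behind these levels stood 3, 8 and 15 fragments for Rb1, against 5, 5 and 7 for DMSO. With 1 library at or above 1 FPKM it failed the filter and was not tested with the other genes. Rb1 replicates 2 and 3 lay above every DMSO library and Rb1 replicate 1 lay below them. The 26 fragments in Rb1 against 17 in DMSO gave a ratio of 1.45 per total fragments, with an exact 95% interval of 0.760 to 2.86 that covers counting error only. No difference was therefore detected at this depth, and the interval covers lower as well as higher levels in Rb1. With the filter left out, limma gave a log2 difference of 0.13 for Bcl2 (adjusted p = 0.707).

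Bax (ENSRNOG00000020876, chromosome 1, 101451801 to 101457207, minus strand) encodes the effector that moves from the cytosol to mitochondria upon activation. Its FPKM was 87.9, 115 and 126 in Rb1 and 122, 158 and 116 in DMSO. The lowest library was Rb1 replicate 1 and the highest DMSO replicate 2, and the other 4 libraries lay between 115 and 126. The log2 difference was -0.27, with a 95% interval of -0.69 to 0.15 (limma, adjusted p = 0.395). It ranged from -0.38 to -0.12 when each library was left out in turn, and the groups did not overlap once Rb1 replicate 3, the highest Rb1 library, was left out.

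Bak1 (ENSRNOG00000000485, chromosome 20, 5609624 to 5618260, minus strand), the effector that resides in the mitochondrial membrane, had almost equal means, of 39.1 ± 10.9 FPKM in Rb1 and 38.8 ± 2.52 in DMSO. Its FPKM was 28.0, 49.8 and 39.5 in Rb1 and 39.9, 40.5 and 35.9 in DMSO. Rb1 replicate 1 was the lowest and Rb1 replicate 2 the highest of all libraries, so the DMSO values lay wholly inside the Rb1 range. The log2 difference of -0.024 had a 95% interval of -0.50 to 0.45, which spans both directions (limma, adjusted p = 0.954). Its sign was not stable, and the difference was 0.19 without Rb1 replicate 1 and 0.058 with all libraries scaled to 1 median.

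Of the BH3-only members, Pmaip1 (ENSRNOG00000018770, chromosome 18, 62174669 to 62181102, plus strand) encodes NOXA, which binds mainly to MCL1. Its promoter is shown because Pmaip1 was the member with the largest difference. RefSeq windows of the assembly GRCr8, running from 250 bases before to 50 after the start of transcription, were at hand for 7 of the 8 members with a row, the exception being Bax. The windows were searched on both strands for the core of the cyclic AMP response element, to which ATF and CREB factors bind. This core is TGACGT or its reverse complement ACGTCA. Another motif was searched for in the same windows and is not reported here. The core of the cyclic AMP response element is marked by capitals in the Pmaip1 window (chr18:62255720-62256019, plus strand, GRCr8), 5′ to 3′.
Pmaip1: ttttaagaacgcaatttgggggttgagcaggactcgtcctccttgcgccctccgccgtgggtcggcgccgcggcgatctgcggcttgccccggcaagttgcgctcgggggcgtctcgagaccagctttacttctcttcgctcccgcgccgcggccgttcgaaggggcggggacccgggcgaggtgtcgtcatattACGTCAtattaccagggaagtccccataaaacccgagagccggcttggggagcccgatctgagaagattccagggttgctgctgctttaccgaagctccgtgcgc

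The core occurred once in this window, with its first base at -55 from the start. It was absent from the windows of the other 6 members, Bcl2l1 with its 4 windows included, and 7.94% of the 33469 windows of all genes hold it. A match of letters is a description of the sequence and shows no binding, and the absence of a match says only that these letters are not in the window.

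The FPKM of Pmaip1 was 17.4, 20.02 and 15.7 in Rb1 and 10.9, 12.5 and 12.1 in DMSO. Behind the Rb1 values stood 396, 696 and 611 fragments, and behind the DMSO values 303, 373 and 412. Every Rb1 library lay above every DMSO library, and Rb1 replicate 2 was the highest. The means were 17.7 ± 2.17 in Rb1 and 11.8 ± 0.86 in DMSO. The log2 difference was 0.54 with an SE of 0.13 and a 95% interval of 0.24 to 0.84. In limma the unadjusted p was 0.0037 and the adjusted p 0.118, and Pmaip1 stood at rank 333 of the genes by p. The exact two-sided permutation test gave p = 0.1, the smallest that 3 against 3 libraries allow. Under the alternative settings the difference stayed between 0.45 and 0.62, with adjusted p-values in limma of 0.0880 to 0.346. As fragments per 1000000 fragments of the library, without scaling for length, Pmaip1 stood at 48.3, 55.2 and 43.1 in Rb1 and at 29.8, 34.6 and 33.4 in DMSO, and again the groups did not overlap. How many of all genes do so on this scale was not taken.

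Bad (ENSRNOG00000021147, chromosome 1, 222198533 to 222207453, plus strand) encodes a BH3-only protein that binds BCL2 and BCL-XL and is kept in the cytosol by phosphorylation and 14-3-3 proteins. Its FPKM was 43.9, 30.5 and 30.6 in Rb1 and 43.0, 48.5 and 38.9 in DMSO. Rb1 replicates 2 and 3 lay below all DMSO libraries, whereas Rb1 replicate 1 lay among them. With all libraries the log2 difference was -0.32, with a 95% interval of -0.72 to 0.09 (limma, adjusted p = 0.308). Leaving out each library in turn gave differences of -0.49 to -0.23. The strongest, -0.49, was without Rb1 replicate 1, with an unadjusted p of 0.0065 and an adjusted p of 0.111 in limma. The groups then no longer overlapped, which follows from removing the only Rb1 library that lay among the DMSO values. The weakest, -0.23, was without Rb1 replicate 2, with an unadjusted p of 0.270 in limma.

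Bid (ENSRNOG00000012439, chromosome 4, 153442217 to 153465203, minus strand), which caspase-8 cleaves to link death receptors to mitochondria, was nearly constant in DMSO. Its FPKM was 12.5, 12.6 and 12.7 in DMSO and 14.7, 11.1 and 11.6 in Rb1. All 3 DMSO values fell between Rb1 replicate 1, the highest library, and the lower pair of Rb1 replicates. The log2 difference of -0.023 (95% interval -0.33 to 0.28, limma adjusted p = 0.927) turned positive, to 0.048 and 0.021, without Rb1 replicate 2 or 3.

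Bcl2l11 (ENSRNOG00000016551, chromosome 3, 120726905 to 120764192, plus strand) encodes BIM, which binds all pro-survival members and can act on the effectors. Its FPKM was 4.18, 3.24 and 3.75 in Rb1 and 4.22, 4.03 and 4.49 in DMSO. Rb1 replicates 2 and 3 lay below the DMSO libraries, and Rb1 replicate 1 lay just inside their range. The log2 difference was -0.15, with a 95% interval of -0.44 to 0.13 (limma, adjusted p = 0.461). Scaling for length mattered here, since the fragments per 1000000 were 17.1, 15.6 and 17.6 in Rb1 and 20.2, 18.7 and 21.4 in DMSO, which do not overlap. In Rb1 replicate 1, 1 FPKM of Bcl2l11 stood for 0.849 times as many fragments as in DMSO, relative to the median gene, while the same figure was 1.01 and 0.998 in Rb1 replicates 2 and 3. On fragments, limma with voom gave a difference of -0.26 that did not pass the adjusted test either. It was nearer to no change with the libraries scaled, at -0.088 with median scaling and -0.059 with quantile normalization. The share of all genes without overlap in fragments per 1000000 was not taken.

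**Figure D2:**
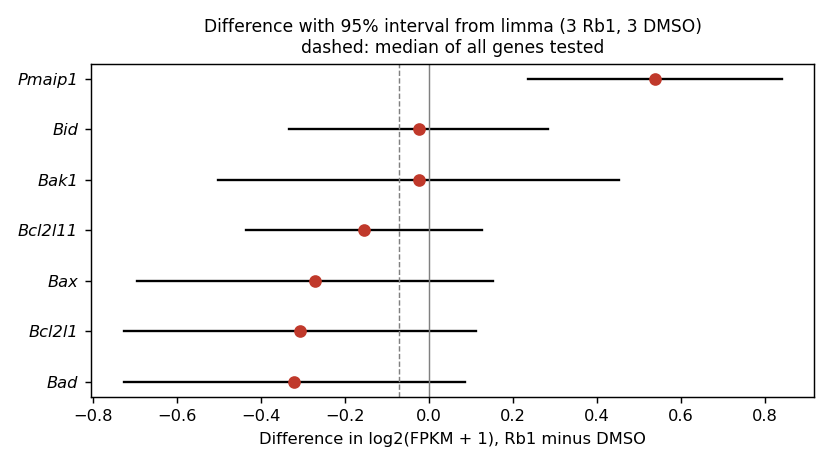
Difference between Rb1 and DMSO in log2(FPKM + 1) for the 7 tested members, with 3 libraries per group. Points are the limma estimates, bars their 95% intervals and the dashed line the median of all genes tested, at -0.07, and the interval of Pmaip1, 0.24 to 0.84, is the only one that does not reach 0.

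The spread between replicates was compared between the groups for the members only. The SD of log2(FPKM + 1) was larger in Rb1 than in DMSO for 7 of the 7 tested members, by the least in Bax, at 0.27 against 0.24. On the FPKM scale this held for 6 of the 7, the exception being Bax. The share of all genes with a larger SD in Rb1 was not taken, and the members share the same libraries. The count is therefore not a result about the family. Rb1 replicate 1 was an extreme of its group for 6 of the 7, in 3 cases the highest and in 3 the lowest. Rb1 replicate 2 had the same counts, and DMSO replicate 2 was the highest of its group for 4 and the lowest for 2. These counts therefore do not set Rb1 replicate 1 apart. The deviation of Rb1 replicate 1 from the DMSO mean on the log2 scale was -0.635 in Bcl2l1, -0.57 in Bax and -0.46 in Bak1, and 0.21 in Bid. Rb1 replicates 2 and 3 were alike in Bad, at -0.49 each, where Rb1 replicate 1 was at 0.02. Pmaip1 stood above the DMSO mean in all 3 Rb1 libraries, by 0.52, 0.71 and 0.38. Bcl2l1, Bax and Bcl2l11 stood below it in all 3, with deviations of -0.08, -0.06 and -0.02 in the closest library.

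**Figure D3:**
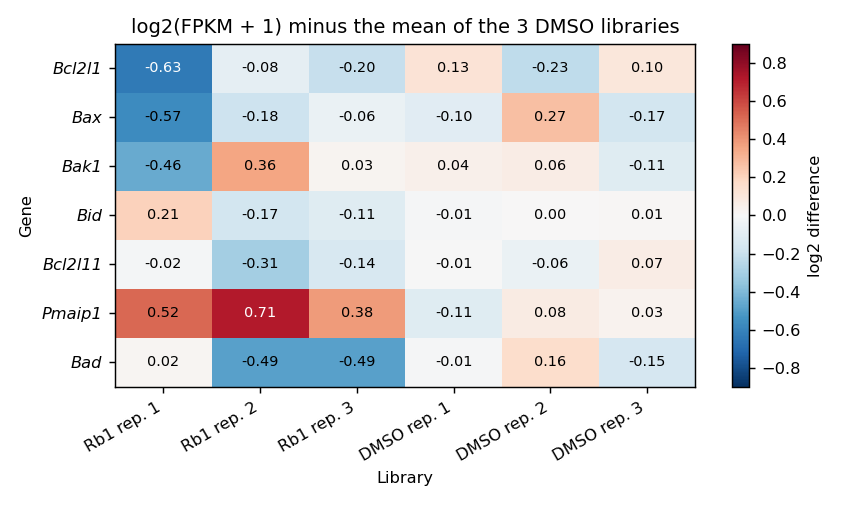
Deviation of log2(FPKM + 1) from the mean of the 3 DMSO libraries, for 7 members in rows and 6 libraries in columns, red above and blue below. Pmaip1 is red in the 3 Rb1 libraries, at 0.52, 0.71 and 0.38, and Rb1 replicate 1 differs from Rb1 replicates 2 and 3 in Bcl2l1, Bad and Bid.

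Ratios within a library are free of the scaling between libraries and are given without a test. The ratio of Bax to Bcl2, a usual measure of the balance between effector and pro-survival transcripts, was 262, 190 and 122 in Rb1 and 261, 342 and 218 in DMSO on the FPKM scale. The groups overlapped, and the denominator rests on as few as 3 fragments, so the ratio is poorly determined. The mean was 191 ± 70.1 in Rb1 and 273 ± 62.8 in DMSO. Bcl2l1 gave a firmer denominator, chosen after the values were seen. Bax to Bcl2l1 was 2.29 ± 0.20 in Rb1 and 2.29 ± 0.74 in DMSO, and Bak1 to Bcl2l1 was 0.804 ± 0.081 and 0.664 ± 0.13. Pmaip1 to Bcl2l1 was 0.462, 0.360 and 0.308 in Rb1 and 0.169, 0.249 and 0.192 in DMSO, and here the groups did not overlap. This ratio was not planned and divides the member already seen to be higher by a lower one. Its separation therefore adds nothing to the values of Pmaip1 itself.

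Summed by role, the 2 effectors had 148.6 ± 28.4 FPKM in Rb1 and 170.9 ± 24.6 in DMSO. The 2 pro-survival members with a row had 48.8 ± 9.60 and 59.8 ± 7.91, nearly all of it Bcl2l1. The 4 BH3-only members had 68.9 ± 9.93 and 72.1 ± 4.91, in which the higher Pmaip1 stood beside the lower Bad. The library sums of Rb1 and DMSO overlapped in every role. For the pro-survival members they were 38.0, 56.3 and 52.1 in Rb1 and 65.0, 50.7 and 63.9 in DMSO. The pro-survival genes Bcl2l2 and Bcl2a1, outside the member list, are not in that sum.

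The family has further members outside the list of 10. Of 13 such genes 12 had a row and 8 were tested, with a median log2 difference of -0.12, against -0.15 over the 7 members and -0.07 over all genes. None passed the adjusted test in limma. At an unadjusted p under 0.05, 0 were higher and 2 lower, where 8.27% and 14.6% of all genes were. The total of 2 became 0 without DMSO replicate 2, 1 without Rb1 replicate 1, DMSO replicate 1 or DMSO replicate 3, and 0 with median or quantile scaling. One was Bmf, a BH3-only gene, at 1.96, 1.72 and 2.34 FPKM in Rb1 and 2.44, 3.41 and 2.72 in DMSO, with a difference of -0.36. The other was Bcl2l12, at -0.38. Both had groups that did not overlap, as 20.3% of all genes did on the lower side. The pro-survival gene Bcl2l2 was at 12.6 ± 1.04 FPKM in Rb1 and 13.6 ± 0.30 in DMSO, and Bok, an effector-like gene, at 7.07 ± 1.84 and 7.77 ± 1.27.

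Bcl2a1, a pro-survival gene known chiefly from blood cells, was at 48.5, 27.2 and 29.9 FPKM in Rb1 and 23.0, 26.7 and 28.7 in DMSO. Rb1 replicate 1 lay far above the other 5 libraries. The hypoxia-responsive mitophagy receptor Bnip3 was also highest in that library, at 181, 94.4 and 117 FPKM in Rb1 and 106, 88.9 and 87.9 in DMSO, and its relative Bnip3l was at 58.4 ± 9.32 and 51.8 ± 2.68. Bik was listed at 0 in 4 of the 6 libraries and close to 0 in the others. Of the 9 macrophage and leukocyte markers tested, 7 were lower by value, Csf1r without overlap at -0.27, while Lyz2 was the only one with an unadjusted p under 0.05 in limma, on the higher side. Their part in the Bcl2a1 values was not tested.

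Downstream of the mitochondrion, 16 of 18 genes of the apoptosome, the caspases and their inhibitors were tested, with a median of -0.13. At an unadjusted p under 0.05, 3 were higher and 2 lower, against 8.27% and 14.6% of all genes, and 0 passed the adjusted test in limma. The total of 5 was 1 without DMSO replicate 2, 2 without DMSO replicate 1 or Rb1 replicate 1, and 3 without DMSO replicate 3 or Rb1 replicate 3. Cycs, which encodes the cytochrome c released through BAX and BAK pores and used in respiration, was at 199, 119 and 105 FPKM in Rb1 and 80.1, 88.1 and 97.1 in DMSO, a log2 difference of 0.62. All Rb1 libraries lay above all DMSO libraries, with Rb1 replicate 1 far above the rest. Endog, a mitochondrial nuclease gene, stood on the lower side at -0.65, with 3.37, 3.36 and 4.77 FPKM in Rb1 and 6.77, 7.90 and 5.13 in DMSO. Apaf1, the scaffold of the apoptosome, differed by -0.027 (95% interval -0.34 to 0.28) and its partner Casp9 by -0.28 (-0.60 to 0.036). Diablo, Birc5 and the caspase inhibitor gene Xiap differed by 0.018, -0.054 and -0.29, and none of the 3 reached an unadjusted p under 0.05 in limma.

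Of 12 genes of the death receptor pathway, which reaches the mitochondrion through Bid, 10 were tested, with a median of -0.14. At an unadjusted p under 0.05, 1 was higher and 1 lower, against 8.27% and 14.6% of all genes, and 0 passed the adjusted test in limma. Their total of 2 was 0 without DMSO replicate 2, 1 without DMSO replicate 1, Rb1 replicate 1 or Rb1 replicate 3, and 4 without Rb1 replicate 2. The receptor gene Fas was at 8.06, 6.39 and 6.36 FPKM in Rb1 and 5.20, 4.35 and 5.26 in DMSO, and its groups did not overlap. Its log2 difference was 0.42, with an unadjusted p of 0.017 and an adjusted p of 0.151 in limma. Tnfrsf1a, the receptor of TNF, was lower in Rb1 at 162.0 ± 22.9 FPKM against 206.1 ± 16.3, a difference of -0.35, and it was the only gene of the list on that side at an unadjusted p under 0.05. Tnfrsf10b differed by -0.27, the initiator Casp8 by -0.063 and its inhibitor Cflar by -0.31, with groups that overlapped for Casp8 and Cflar.

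Of 18 genes whose products act on BCL2 family proteins or their transcription, all 18 were tested, with a median of -0.22. At an unadjusted p under 0.05, 1 was higher and 3 lower, near the 8.27% and 14.6% of all genes, and 0 passed the adjusted test in limma. For these regulators the total of 4 was 1 without DMSO replicate 2, 2 without DMSO replicate 1 and 8 with voom. Akt1, whose kinase phosphorylates BAD, was at 75.3, 95.6 and 85.2 FPKM in Rb1 and 102.6, 106.5 and 121.1 in DMSO, a difference of -0.37 without overlap. Pim1, another kinase gene of this kind, differed by -0.47, and Ywhae, which encodes a 14-3-3 protein, by 0.41. Huwe1 and Usp9x, which encode a ligase and a deubiquitinase of MCL1, differed by -0.40 (95% interval -0.83 to 0.022) and 0.18 (-0.16 to 0.52). Vdac2, which encodes a mitochondrial channel that binds BAK, was at 123.8 ± 3.82 FPKM in Rb1 and 115.4 ± 1.54 in DMSO, and its difference of 0.10 had an unadjusted p of 0.357 in limma. Foxo3, a transcription factor gene upstream of Bcl2l11, was at 0.771, 2.44 and 2.08 FPKM in Rb1 and 3.15, 3.14 and 2.47 in DMSO, and Ddit3 differed by -0.12.

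**Figure D4:**
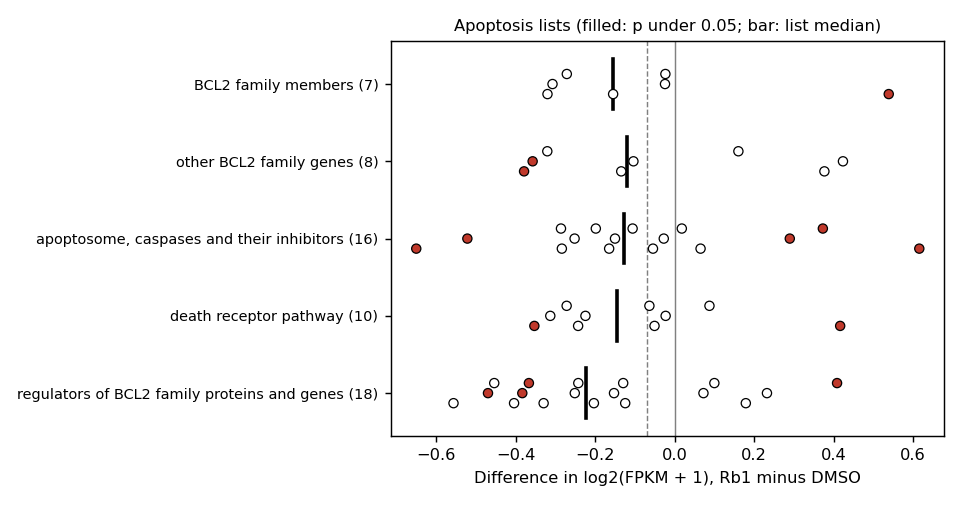
Difference between Rb1 and DMSO in log2(FPKM + 1) for each tested gene of the BCL2 family members (7) and of the 4 further lists (8, 16, 10 and 18 genes), with 1 point per gene. Filled points have an unadjusted p under 0.05 in limma, bars are list medians, from -0.22 to -0.12, and the dashed line is the median of all genes, at -0.07.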

How the data were processed

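The authors deposited FPKM values, made from stranded, rRNA-depleted libraries. The authors also deposited count columns that hold a signal, made by scaling the fragments of each library with a factor of its own. CASAVA 1.8 and HISAT2 are named in the submitters' processing notes, and hg19, a human build, as well. The sources used here name no counting program. Division by the smallest step of a library gave whole fragments, within 0.05, for 98.7% to 99.4% of the values above 0. Summing rows with 1 symbol left 21797 genes, and those that reached 1 FPKM in 3 or more of the 6 libraries were tested. With a pseudocount of 1, a scale on which the change of low genes is understated, the log2 values went into limma 3.58.1 (R 4.3.3) with the group as the only term and Benjamini-Hochberg adjustment. The fit was tested on simulated data. An exact permutation test, two-sided, was added for each member. The members and lists were chosen with earlier results of these data known. Named genes are all members, a fixed few of each list and the 2 with the smallest p of each list. The alternatives were a replicate block, other pseudocounts, filters, scalings and variance models, unsummed rows, voom and the removal of each library. Promoters are from RefSeq, assembly GRCr8. Some genes of the lists are not reported here.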

Additional observations from a re-analysis of the deposited data

How the results depend on the processing

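Under 16 alternatives, 102 of 111 differences of the 7 tested members kept their direction, and 0 had an adjusted p under 0.05 in limma. The 9 that turned were of Bak1 and Bid, whose differences lie close to 0. With libraries scaled to 1 median they were 0.058 and 0.054, with quantile normalization 0.012 and 0.040, and for Bak1 with voom 0.016. Leaving out each library gave -0.21 to 0.19 for Bak1, positive without Rb1 replicate 1 (0.19) or DMSO replicate 2 (0.0080), and -0.14 to 0.048 for Bid, positive without Rb1 replicate 2 (0.048) or 3 (0.021). Members with an unadjusted p under 0.05 numbered 1 to 2 with a library left out, and members whose groups did not overlap numbered 1 to 4. There were 4 without Rb1 replicate 1 (Bid, Bcl2l11 and Bad lower, Pmaip1 higher), 3 without DMSO replicate 2, 2 without Rb1 replicate 3 and 2 with voom. The share of all genes without overlap was not taken under these settings, and groups of fewer libraries separate more easily. The backgrounds of 11.9% and 20.3% are for all 6 libraries, so these counts are not a result about the family. Over all genes, those with an adjusted p under 0.05 numbered 2, and 1 at a mean FPKM of at least 5 or with median scaling, 0 with voom and 0 to 6 with a library left out, the 6 without Rb1 replicate 1. Genes with an unadjusted p under 0.05 numbered 2467, and 1463 to 2554 with a library left out, the fewest without DMSO replicate 1 (1463) and DMSO replicate 2 (1642). Their split of 892 higher and 1575 lower became 1346 and 1017 with median scaling, and 1279 and 1158 with quantile normalization. Counts of list genes with an unadjusted p under 0.05 ranged from 0 to 3 in the other BCL2 family genes, 1 to 5 in the apoptosome and caspases, 0 to 4 in the death receptor pathway and 1 to 8 in the regulators. With the replicate number as a block, 0 genes had an adjusted p under 0.05 and Pmaip1 differed by 0.54 (limma, adjusted p = 0.221). Between same-numbered libraries, the deviations of the genes from their group means correlated at -0.0038, -0.042 and 0.16, so the numbers were not taken as pairs. Count models were not run, since a few of the deposited scaled counts are not whole, and voom was run with library totals in place of TMM factors. The ratio of Bax to Bcl2 in Rb1 over that in DMSO ranged from 0.570 to 0.826 with a library left out. Depth limits Bcl2 most, with 3 to 15 fragments per library.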

Other observations

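The genes that the deposited annotation assigns to the KEGG apoptosis pathway, a list added after the data were seen, comprised 81 symbols, of which 67 were tested. By value 16 were higher and 51 lower in Rb1, where 41.0% of all genes were higher. The median was -0.15 on the log2(FPKM + 1) scale against -0.07 over all genes. With median scaling of the libraries the median over all genes was 0.0017, and this list was not examined under that scaling. At an unadjusted p under 0.05, 8 were higher and 8 lower, where 8.27% and 14.6% of all genes were, and 0 passed the adjusted test in limma. The lists overlap, since the annotation holds several of the genes described above.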
